A study of Mus musculus with 6 samples.

Results

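The platelet-derived growth factor (PDGF) genes examined here were the 2 receptors, Pdgfra and Pdgfrb, and the 4 ligands, Pdgfa, Pdgfb, Pdgfc and Pdgfd. They were taken as the rows of the deposited array table annotated to these symbols. All 6 had a row, each gene had 1 row, and none of the 6 rows repeated the values of another row. They stood among 19938 genes with a row annotated to a single gene.

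Gene expression had been measured on 6 one-colour arrays. Mouse embryonic fibroblasts (MEF, 1 array) were cultured from C57BL/6JJcl embryos at E11.5 to E13.5. Lymph node (LN) stroma (1 array) was sorted fresh from adult C57BL/6JJcl nodes by digestion and a gate for podoplanin and VCAM-1 that left out cells with CD45 or CD31. BLS4 and BLS12 are established stromal lines from BALB/cA lymph nodes, and each gave 1 array unstimulated and 1 array after 2 days with 1 µg/ml of an agonist of the lymphotoxin β receptor (LTβR), a polyclonal antibody raised in goat. MEF and both lines were grown in serum-containing medium, and a control antibody was not among the groups. MEF and LN stroma share a strain but differ in age, origin and culture. MEF and the lines differ in strain as well as origin, and LN stroma and the lines differ in strain and culture. Within each of these pairs the factors cannot be told apart. Whether animals were pooled, and whether a line is a single clone, was not given in the sources used here. Nothing in the labels describes separate derivations of the arrays of a line, so the p-values reflect the spread among these arrays alone, and that spread may be technical.

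PDGFs are disulphide-linked dimers that bring 2 receptor chains together and switch on their tyrosine kinases. PDGF-A and PDGF-C act mainly through the α receptor, PDGF-B through both receptors, and PDGF-D mainly through the β receptor. The C and D forms are secreted with a CUB domain that proteases must remove. Fibroblastic stroma is typically marked by both receptors, pericytes by the β receptor, and endothelium is a classic source of PDGF-B.

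Promoter sequence is shown for the 3 members whose levels spanned the widest range over the arrays, Pdgfra, Pdgfc and Pdgfd, so that a reader can see the region whose transcripts are described. Each is the 250 bases before the RefSeq gene start on the plus strand of GRCm38.p6, at chr5:75152001-75152250, chr3:81036166-81036415 and chr9:6168236-6168485. Capitals mark a match to a searched motif.
Pdgfra: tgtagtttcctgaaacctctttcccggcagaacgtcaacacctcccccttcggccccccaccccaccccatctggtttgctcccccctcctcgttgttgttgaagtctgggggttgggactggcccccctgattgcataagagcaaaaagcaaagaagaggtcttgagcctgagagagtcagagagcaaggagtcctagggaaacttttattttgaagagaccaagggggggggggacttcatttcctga
Pdgfc: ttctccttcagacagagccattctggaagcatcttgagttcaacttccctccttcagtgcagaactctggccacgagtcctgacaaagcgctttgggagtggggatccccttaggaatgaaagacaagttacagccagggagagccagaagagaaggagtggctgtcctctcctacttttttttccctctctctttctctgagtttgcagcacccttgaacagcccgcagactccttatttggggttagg
Pdgfd: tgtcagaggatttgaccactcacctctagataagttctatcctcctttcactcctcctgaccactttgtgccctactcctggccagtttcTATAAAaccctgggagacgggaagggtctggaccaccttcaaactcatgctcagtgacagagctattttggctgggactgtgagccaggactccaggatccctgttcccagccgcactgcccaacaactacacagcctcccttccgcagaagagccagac
The motifs, searched on both strands, were the TATA box (TATAAA, in 12.4% of 32851 promoter windows of this length), the CCAAT box (CCAAT, 33.8%), the GC box (GGGCGG, 32.7%), an AP-1 motif (TGANTCA, 6.75%) and the NF-κB motif (1.41%). Of the windows shown, Pdgfd had 1 match, a TATAAA that began 160 bases before the gene start, and the other two held none of these letters. The 2 Pdgfa windows held 1 and 2 GC box matches and no other motif. Windows were used for 4 of the 6 members. Pdgfrb was left out of the search, and no window was used for Pdgfb. These matches describe letters in a window, and the arrays hold no measurement of promoter activity or binding.

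Array medians lay between 51.5 and 56.3 intensity units. The table has no detection call, so 1194 olfactory and vomeronasal receptor genes, which stromal cells are not known to use, served as a background, and their 95th percentile was 5.05 to 5.21 log2 units over the arrays. Podoplanin (Pdpn) and Vcam1 were well above it everywhere, at 10.20 and 11.90 log2 units in LN stroma. Ptprc (CD45) and Pecam1 (CD31) were at or below it on the 4 line arrays, while LN stroma had 5.70 and 6.44, above its own background level of 5.14. As these are bulk samples, fewer cells of a type and less RNA per cell cannot be told apart.

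Pdgfra, the α receptor, had an intensity of 298 in MEF and 4891 in LN stroma. It was 3111 in unstimulated BLS4, 4667 in BLS4 with antibody, 2229 in unstimulated BLS12 and 5322 in BLS12 with antibody. MEF was the low array, with a gap of 2.90 log2 units to the next level, and the other 5 lay between 2229 and 5322, the unstimulated lines below the rest. Pdgfra was 16.4-fold higher in LN stroma than in MEF, 10.4-fold higher in unstimulated BLS4 and 7.49-fold higher in unstimulated BLS12. Even in MEF its level exceeded that of all the chemosensory receptor genes, so the transcript was low there and not at background.

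Pdgfrb, the β receptor, had a different order. Its intensity was 1276 in MEF, 3137 in LN stroma, 3752 and 2724 in BLS4 without and with antibody, and 690 and 1053 in BLS12 without and with antibody. LN stroma and both BLS4 arrays formed the high group, and MEF and both BLS12 arrays the low group. LN stroma exceeded MEF 2.46-fold and unstimulated BLS4 exceeded it 2.94-fold, whereas unstimulated BLS12 was 1.85-fold below MEF. The ratio of the Pdgfra signal to the Pdgfrb signal, set to its value in MEF, was therefore 6.68-fold higher in LN stroma, 3.55-fold and 7.34-fold higher in BLS4 without and with antibody, and 13.8-fold and 21.7-fold higher in BLS12. This ratio shows unequal change of the receptors between samples, not which receptor is more abundant in a sample.

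Pdgfc, a ligand of the α receptor that is activated outside the cell, was highest in MEF, where Pdgfra was lowest. Among unstimulated cells both genes were higher in BLS4 than in BLS12. Pdgfc had an intensity of 1301 in MEF against 82.4 in LN stroma, 205 and 133 in BLS4 without and with antibody, and 72.4 and 55.6 in BLS12. MEF was the high array by 2.67 log2 units. The MEF level was 15.8-fold that of LN stroma, 6.36-fold that of unstimulated BLS4 and 18.0-fold that of unstimulated BLS12. In BLS12 with antibody Pdgfc lay just under the array median, at 5.80 against 5.82 log2 units.

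Pdgfa, the other ligand chiefly of the α receptor, was also highest in MEF, with an intensity of 577. The other 5 arrays held it between 240 and 291, with LN stroma at 247. MEF was 2.34-fold above LN stroma, 2.40-fold above unstimulated BLS4 and 2.31-fold above unstimulated BLS12. Pdgfb, which binds both receptors, was 111 in MEF and between 60.2 and 74.5 on the remaining arrays, with LN stroma at 62.5. The 5 lower Pdgfb levels lay from 5.91 to 6.22 log2 units, close to the array medians of 5.69 to 5.82 and above the background level of each array.

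Pdgfd, the ligand of the β receptor, had an intensity of 553 in MEF, 260 in LN stroma, and 352 and 209 in BLS4 without and with antibody. In BLS12 it was 20.3 without and 25.6 with antibody. The BLS12 arrays stood apart, by 3.03 log2 units from the next level, and 83.7% and 87.9% of the chemosensory receptor genes lay below Pdgfd there, so Pdgfd was not above background in that line. Against the 95th percentile of those genes, Pdgfd was at least 16.3-fold higher in MEF than in unstimulated BLS12 and at least 7.67-fold higher in LN stroma.

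**Figure D1:**
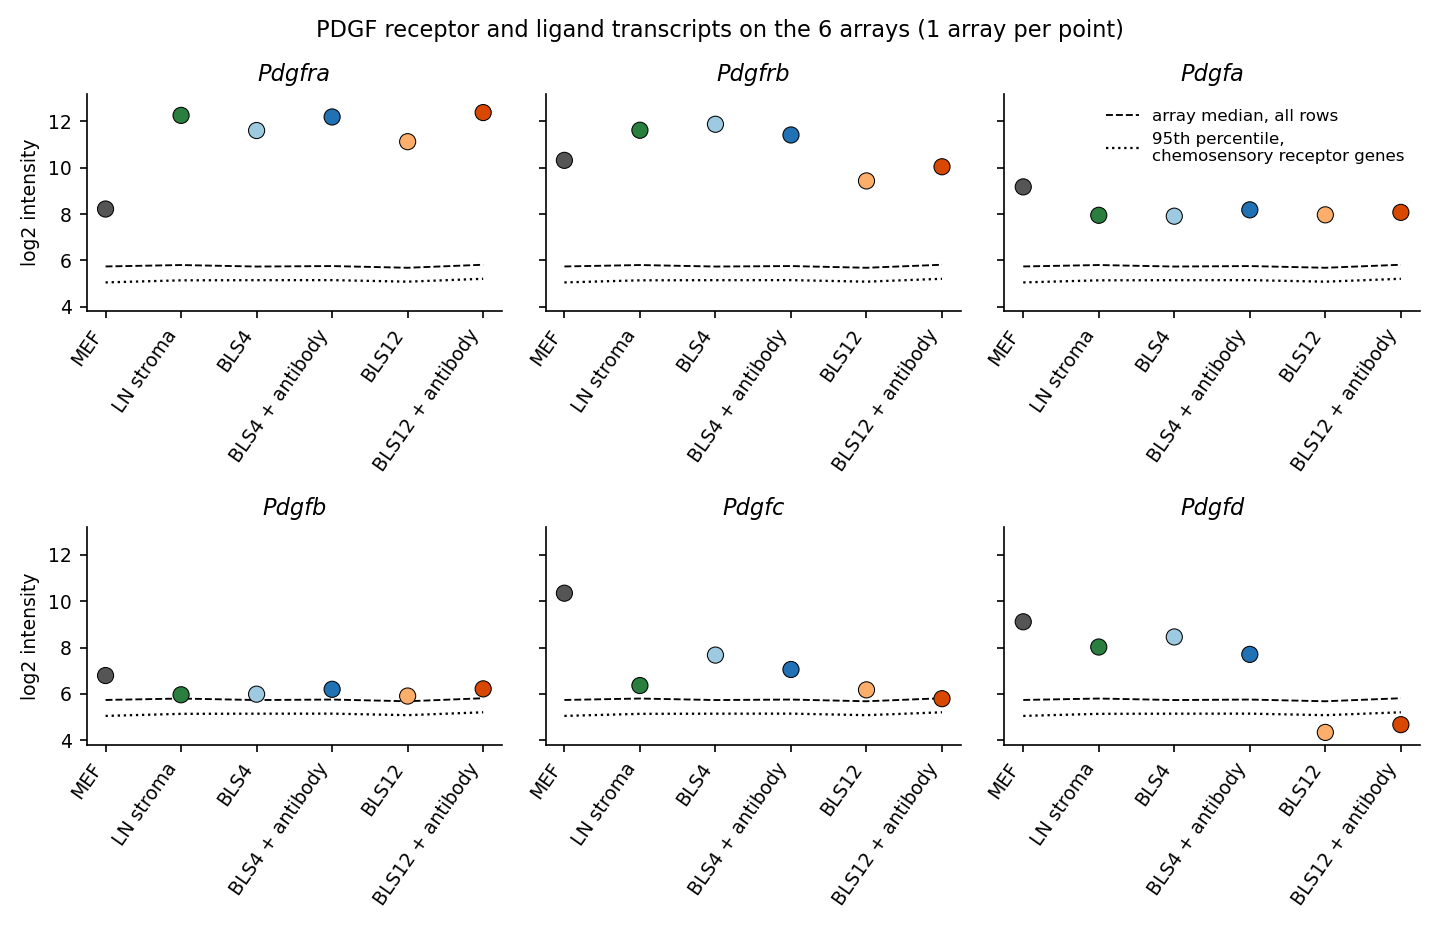
The log2 intensity (y axis) of each receptor and ligand is plotted for the 6 arrays (x axis, 1 point per array), with the array median as a dashed line and the 95th percentile of chemosensory receptor genes as a dotted line. Pdgfra is lowest and Pdgfc highest in MEF, Pdgfb lies near the median outside MEF, and Pdgfd in BLS12 lies under the dotted line.

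The levels were ordered for each gene, and neighbours were taken as apart where their gap exceeded 2 standard errors of a difference between 2 arrays, from the spread among the line arrays. By this measure MEF stood apart from its neighbour for Pdgfra, Pdgfa, Pdgfb and Pdgfc. For Pdgfd the gap from MEF to unstimulated BLS4, 0.65 log2 units, was under the limit of 0.76. For Pdgfrb, no neighbours were apart within the set of MEF and the BLS12 arrays or within that of LN stroma and the BLS4 arrays, and the gap between these sets, 1.09, exceeded the limit of 0.75. For Pdgfra, LN stroma lay between the 2 antibody-treated arrays and was not apart from either.

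The comparison of LN stroma with MEF set freshly sorted adult nodal stroma against cultured embryonic fibroblasts. Age, tissue of origin, culture and cell preparation differ together between these samples and cannot be told apart. With 1 array in each group the comparison has no replicate check. At least 4-fold apart were 2 of the 6 genes: Pdgfra was higher in LN stroma, as were 4.64% of the 12613 genes compared, and Pdgfc was lower, as were 2.93%. At the size of at least 2-fold, Pdgfrb was also higher (10.2% of genes compared) and Pdgfa and Pdgfd were also lower (12.1%); after quantile normalization Pdgfd, at -0.98 log2 units, fell just short of that size. Both receptors thus had their higher value in LN stroma and all 4 ligands in MEF, Pdgfb with a 1.78-fold difference.

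Cell type markers moved with these samples as well. All 9 macrophage markers were above the background level in MEF, and Adgre1 and Mrc1 were at or below it on the 5 other arrays. The summed intensity of the 9 was 2334 in MEF against 645 in LN stroma and 689 to 1891 in the lines. In LN stroma 7 of the 9 were at least 2-fold lower than in MEF and 1, Cd14, was at least 2-fold higher. Cd14 had 5.75 log2 units in MEF, 7.85 in LN stroma and 6.50 to 9.73 in the lines. Its highest value was in BLS12 with antibody, the array with the sum of 1891. All 8 pericyte markers were above the background level in both MEF and LN stroma (summed intensity 12536 and 14229, against 3477 to 4882 in the lines). On each line array 6 or 7 of the 8 were above it. Acta2 was the brightest of the 8 in MEF and on each line array (11.59 to 12.14 log2 units), so it weighs most in those sums. Of the 8, 5 were at least 2-fold higher in LN stroma than in MEF and 3 at least 2-fold lower. Rgs5 had 11.30 log2 units, Abcc9 12.18 and Kcnj8 10.08 in LN stroma against 6.62, 5.35 and 5.67 in MEF, while Acta2 had 11.32 against 13.30, Mcam 7.62 against 10.53 and Cspg4 6.17 against 8.27. Of 8 endothelial markers 7 were above background in LN stroma and Prox1 was below it. In MEF 4 of the 8 were above background, and on each line array 3 or 4. Their summed intensity was 731 in LN stroma against 306 to 379 elsewhere. In LN stroma 3 were at least 2-fold higher than in MEF and 1 at least 2-fold lower, Emcn (5.88 against 6.96 log2 units). The part of these cells in the PDGF values was not tested.

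Set against MEF, both unstimulated lines were at least 4-fold higher in Pdgfra, a size and direction found in 0.308% of 12676 genes, and at least 4-fold lower in Pdgfc, as were 1.14%. At the size of at least 2-fold in both lines, Pdgfra was again the 1 higher gene (1.97% of genes) and Pdgfa joined Pdgfc as lower (3.85%). Pdgfrb was above MEF in BLS4 and below it in BLS12. With antibody, both lines were again at least 4-fold above MEF in Pdgfra (0.509% of 12565 genes) and below it in Pdgfc (1.35%), and at 2-fold Pdgfd also was lower in both (2.42% of genes higher, 4.61% lower). The comparisons of LN stroma and of the lines with MEF share the MEF array, so a low or high value of that array enters each of them. Against LN stroma, 0 of the 6 genes were at least 2-fold apart in the same direction in both unstimulated lines, where 4.25% of 12827 genes were higher and 7.03% lower (at 4-fold, 0.569% and 3.52%). With antibody the count was again 0 (4.36% and 7.25% of 12675 genes at 2-fold, 0.647% and 3.44% at 4-fold). The lines themselves parted here: Pdgfrb was 1.20-fold above LN stroma in BLS4 and 4.55-fold below it in BLS12, and Pdgfc was 2.48-fold above it in BLS4 and 1.14-fold below it in BLS12.

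**Figure D2:**
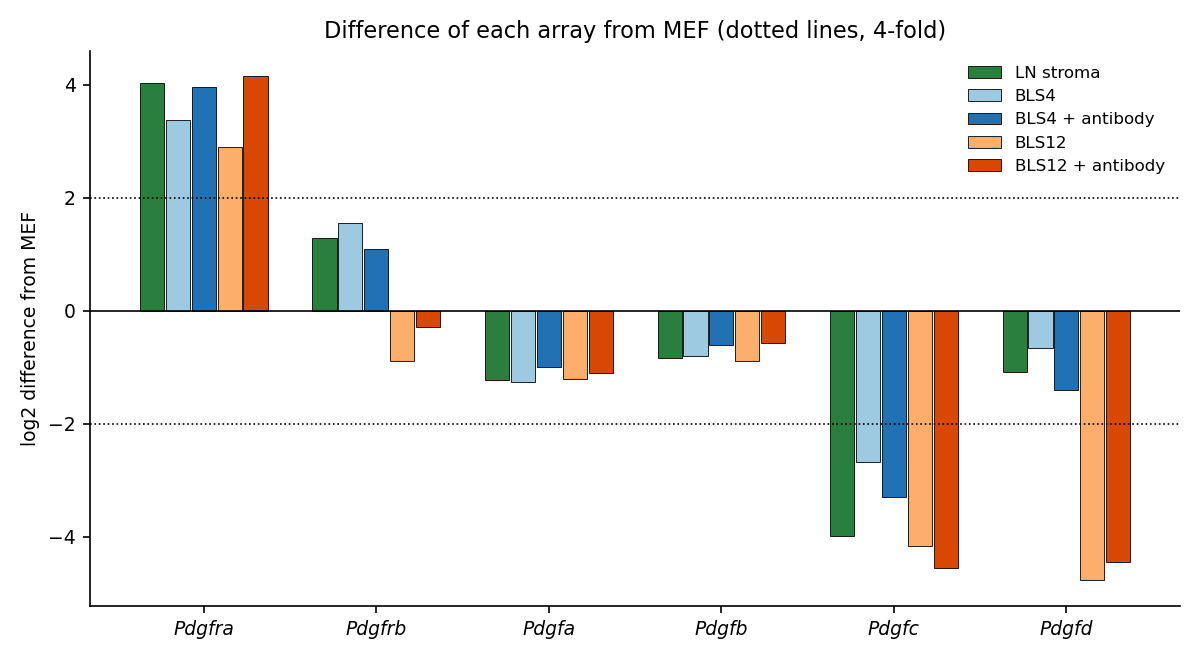
The bars give the log2 difference (y axis) of LN stroma and the 4 line arrays from the MEF array for each gene (x axis), 1 array per bar, with dotted lines at 4-fold. Pdgfra is above the upper line and Pdgfc below the lower line in all 5 arrays, and Pdgfrb changes sign between BLS4 and BLS12.

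The difference between the lines was tested with limma in an additive model of line and antibody over the 4 line arrays. Pdgfrb was higher in BLS4, with a BLS12 minus BLS4 difference of -1.91 log2 units (SE 0.265, adjusted p = 0.00798, limma), or 3.75-fold. Pdgfc differed by -1.38 (SE 0.146, adjusted p = 0.00383, limma), or 2.60-fold. Pdgfd was at least 7.64-fold higher in BLS4, a bound against the background level, since it was not above background in BLS12. Its adjusted p in limma was 0.0014, but it passed the intensity filter through the BLS4 arrays alone, so a difference between the lines was built into its entry. With no filter the adjusted p in limma was 0.000853, again with Pdgfd at background in BLS12.

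All 3 had the lower value in BLS12 both without and with antibody. The Pdgfrb difference was -2.44 in unstimulated and -1.37 in antibody-treated cells, and the Pdgfc difference -1.50 and -1.26. Leaving Pdgfd aside, the line test called 2 of the other 5 genes, and it called 23.6% of the 11988 genes tested, with 11.4% higher in BLS4.

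The remaining genes did not pass. Pdgfra differed by -0.15 (95% interval -0.64 to 0.35, adjusted p = 0.636, limma), Pdgfa by -0.03 (-0.38 to 0.33) and Pdgfb by -0.03 (-0.38 to 0.31). For Pdgfra the unstimulated difference was -0.48 and the antibody-treated one 0.19, so the lines changed order. Markers of mesothelium and epithelium moved with the line: 5 of 6 tested were higher in BLS12, as were 12.2% of all genes tested. The summed intensity of 7 such markers was 2946 and 1390 in BLS12 without and with antibody against 450 and 408 in BLS4. Epcam was at or below background throughout. Of 5 tested fibroblast markers, 3 were also higher in BLS12 and 0 in BLS4: Dcn by 3.27, Thy1 by 1.25 and Col3a1 by 0.90. Of 3 tested macrophage markers 1 was higher in BLS12 and 1 in BLS4. Of 2 tested T zone reticular markers 1 was higher in BLS4, and of 5 tested pericyte markers 0 passed. Beside these stand 12.2% of all genes tested for BLS12 and 11.4% for BLS4. The part of these markers' cells in the PDGF differences was not tested.

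The antibody comparison asked how LTβR stimulation altered these transcripts, with each line as its own control. In limma 0 of the 6 genes passed the adjusted threshold of 0.05, where 33 of 11988 genes (0.275%) did, 0.2% higher and 0.0751% lower with antibody. At an unadjusted p under 0.05 there were 2, Pdgfra and Pdgfc, where 11.6% of all genes had such a p. These 2 differed in the same direction in both lines.

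Pdgfra had the largest difference of the 6, 0.92 log2 units higher with antibody (SE 0.197, 95% interval 0.43 to 1.41, unadjusted p = 0.00411, adjusted p = 0.171, limma; higher in 2 of 2 lines). The difference was 0.59 in BLS4 and 1.26 in BLS12. With antibody both lines lay within 1.09-fold of the LN stroma level, where unstimulated BLS4 and BLS12 had been 1.57-fold and 2.19-fold below it. Pdgfc had a difference of -0.50 (SE 0.146, 95% interval -0.86 to -0.14, adjusted p = 0.287, limma; lower in 2 of 2 lines), with -0.62 in BLS4 and -0.38 in BLS12.

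Pdgfrb averaged 0.07 (95% interval -0.59 to 0.73, adjusted p = 0.942, limma), from -0.46 in BLS4 and 0.61 in BLS12, and -0.0012 after array centring. Pdgfd averaged -0.21 (-0.87 to 0.46, adjusted p = 0.815, limma), from -0.75 in BLS4 and 0.33 in BLS12, the latter between 2 values at background. Pdgfa had 0.27 and 0.11 in the lines and Pdgfb 0.21 and 0.31, with adjusted p of 0.661 and 0.547 in limma. Opposite signs in the lines, as in Pdgfrb and Pdgfd, occurred in 40.1% of the genes tested. The gap between the lines' responses was 1.07 for Pdgfrb, larger than in 96.9% of genes, and no such rank is given for Pdgfd, whose BLS12 values lay at background. No residual degree of freedom is left for a test of such a gap.

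**Figure D3:**
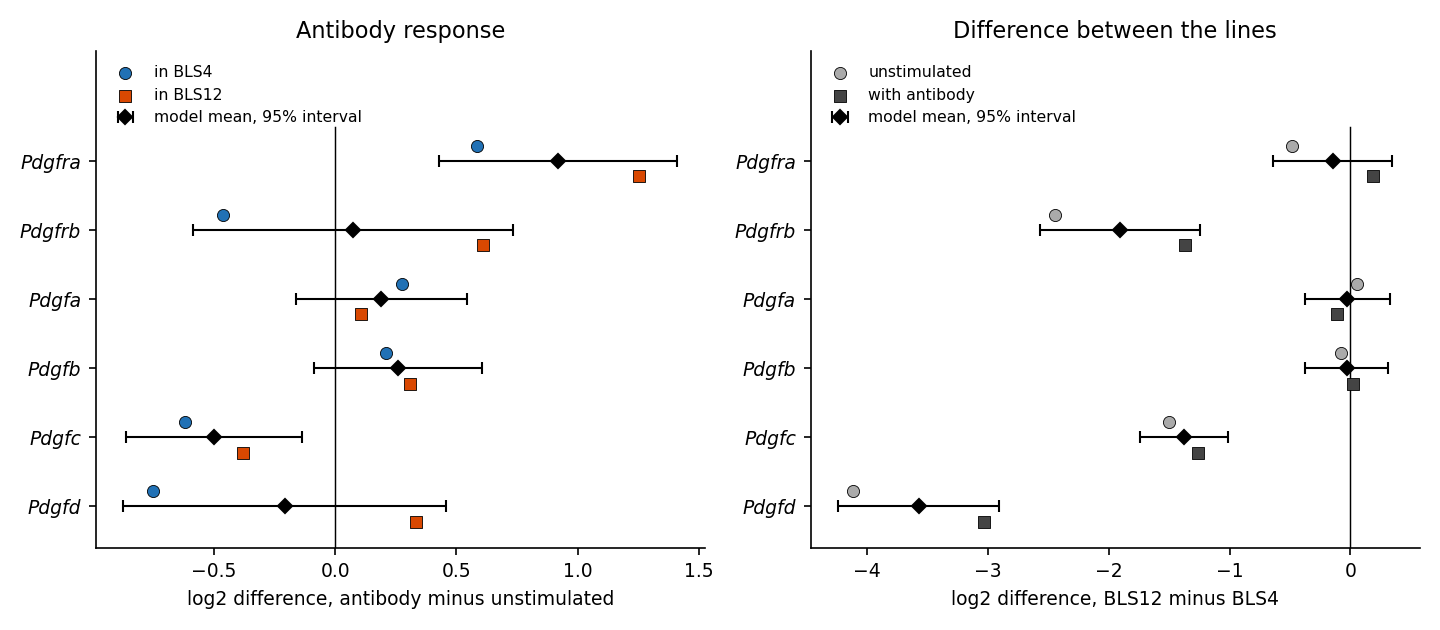
For each gene (y axis), black diamonds give the limma mean with its 95% interval on the log2 scale (x axis), left for antibody minus unstimulated and right for BLS12 minus BLS4, and coloured or grey points give the values of a single line or condition. On the left the 2 points of Pdgfrb and of Pdgfd fall on opposite sides of 0, and on the right Pdgfrb and Pdgfc have intervals wholly below 0. The Pdgfd interval on the right also lies below 0. However, Pdgfd was at background in BLS12 and passed the filter through the BLS4 arrays alone, so this interval is not a like result.

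**Figure D4:**
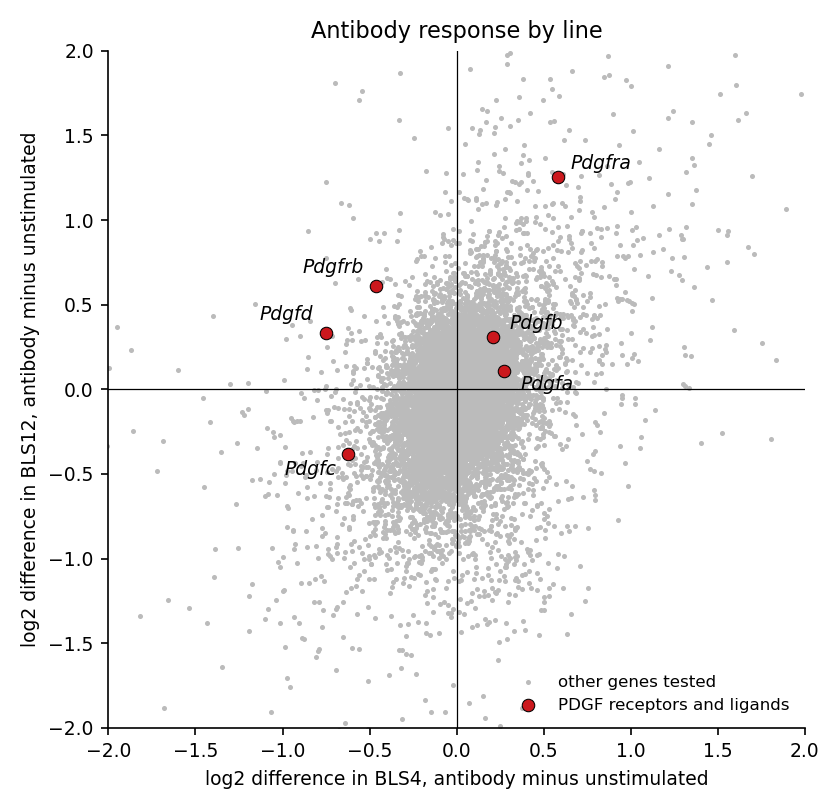
Each grey point is a tested gene, placed by its log2 antibody difference in BLS4 (x axis) and in BLS12 (y axis), and red points are the PDGF receptors and ligands; 73 genes lie outside the axes. Pdgfra lies in the upper right, Pdgfc in the lower left, and Pdgfrb and Pdgfd in the upper left quadrant.

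Other genes of the pathway, and related receptors such as Kit with their ligands, were followed through 6 lists. The lists held 64 genes, of which 63 had a row and 59 were tested between the line arrays. Of the 59, 4 were from the list of related receptors and ligands. In limma 1 of the 59 rose with antibody and 0 fell, where 0.2% of all genes tested rose and 0.0751% fell. The riser was Ccl7, a chemokine, by 1.74 (SE 0.181, adjusted p = 0.0456, limma). Without the pairing by line 0 genes passed, so Ccl7 did not pass there. Between the lines 23 of 59 (39%) passed, 9 higher in BLS12 and 14 higher in BLS4, where 23.6% of all genes tested passed, 12.2% higher in BLS12 and 11.4% higher in BLS4. The median was -0.11 against 0.00256 for all genes. The 23 include related receptors and ligands, with 1 gene higher in BLS12 and 1 higher in BLS4.

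Of 4 co-receptors and binding proteins, 2 were higher in BLS4 and 0 in BLS12, beside 11.4% and 12.2% of all genes tested. The 2 were Nrp1, a co-receptor for several growth factors (-1.46, SE 0.139, adjusted p = 0.00285, limma), and Pdgfrl, a receptor-like protein without a kinase (-0.96). Nrp1 also had an antibody difference of -0.97 (adjusted p = 0.0827, limma). Among 7 proteases that can process the ligands, Furin, which cleaves PDGF precursors, was higher in BLS4 (-0.91), as was Plat, the tissue plasminogen activator that activates PDGF-C (-0.63), while the convertase Pcsk5 was higher in BLS12 (1.30). The other 4 did not pass, and the list median was -0.50.

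Signalling adaptors and enzymes downstream of the receptors had 22 tested members, 3 higher in BLS12 and 3 higher in BLS4. These counts were near the 12.2% and 11.4% of all genes tested. The other 16 members of the list did not pass, and its median was -0.10. The kinase Fyn had the largest difference, -2.31 (SE 0.153, adjusted p = 0.000971, limma), followed by the exchange factor Sos2 (-0.91) and the phosphatase Ptpn11 (-0.63). Gab1 (0.76), Rasa1 (0.70) and Stat3 (0.59) were higher in BLS12. In 12 negative regulators the phosphatases Dusp6 (1.13) and Ptpn2 (0.61) were higher in BLS12 and the ubiquitin ligase Cblb (-0.70) higher in BLS4. The same shares of all genes, 12.2% and 11.4%, stand beside these.

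Among genes that PDGF is known to induce early, which many other stimuli induce too, 2 of 10 were higher in BLS12 (Myc 1.28, Has2 0.67) and 5 higher in BLS4, with the chemokines Ccl2 (-2.10) and Ccl7 (-1.43) and the transcription factor Egr2 (-1.02) the lowest; of all genes tested, 12.2% were higher in BLS12 and 11.4% in BLS4. In LN stroma 9 of the 10 were at least 2-fold above MEF, a size found in 10.2% of genes. LN stroma was freshly digested and sorted and MEF was cultured. Preparation, culture, age and origin cannot be told apart in this comparison, and PDGF signalling was not measured. Fos had 12.48 log2 units in LN stroma against 6.53 in MEF, and Fosb 13.29 against 6.06; both were named after their values were seen.

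The genes whose profiles over the 6 arrays were nearest to each member were sought among 13166 genes, by the root mean square difference of mean-centred log2 values, for the 5 members that spanned at least 1 log2 unit. Nearest to Pdgfra were Slc16a9 (0.44 log2 units, r = 0.956), Lgals3bp (0.51) and Clec2d (0.51). Pdgfrb had closer neighbours in Dnm1 (0.13, r = 0.993), Pros1 (0.13) and Rab3il1 (0.22), each lowest in BLS12. For Pdgfc they were Crabp2 (0.33, r = 0.998), Inhba (0.34) and Nes (0.52), each highest in MEF. Nes was below the background level on every array but MEF. For Pdgfd they were Cacna2d1 (0.35, r = 0.983), Tmem47 (0.42) and Bhlhb9 (0.52), which also had their lowest values on the BLS12 arrays, below the background level there. For Pdgfa they were Pax6 (0.04), Fsd1 (0.07) and Klhl30 (0.08), of which Pax6 and Klhl30 exceeded the array median in MEF alone. With 6 arrays that share groups, these correlations are descriptions.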

How the data were processed

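RNA was measured on 6 one-colour Affymetrix arrays. The deposited values are linear intensities that the authors made with Affymetrix Expression Console 1.1, per the submitters' processing notes. How probes were summarised and normalized, and the genome build, are not given in the sources used here. Values were taken to log2 with no floor. The table has 35557 rows, of which 21789 name 1 gene, 1621 several and 12147 none; names come from GEO's platform annotation, with 21698 matched to RefSeq by Entrez ID. The brightest row stood for a gene. The model of line and antibody was fitted with limma 3.58.1 (lmFit, eBayes, two-sided) in R 4.3.3 over the 4 line arrays, with the cell line as the pairing of treated and untreated arrays. Genes needed at least 2 of 4 arrays at or above the array median, which kept 11988 and all 6 members, and p-values were Benjamini-Hochberg adjusted over them. It had 1 residual and 4.59 prior degrees of freedom. Arrays carry no counts, and their number limits the precision. Differences involving MEF or LN stroma were described by size with no test, and the share of genes past that size was counted among genes with at least 1 compared array at or above its median.

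The members and the gene lists were chosen with earlier results of these data known. All 6 members are named, with list genes past the antibody threshold, the 3 highest and 3 lowest past the line threshold per list, and the 3 nearest profiles per member; marker genes illustrate the cell type lists. The model was tested on data simulated from its own fit, with no difference in antibody response between the lines. That test therefore does not cover data in which the lines respond differently. Alternatives were array centring, quantile normalization, other filters, the mean over a gene's rows, an intensity trend, no pairing, and leaving out a line or condition. 1 listed gene is not reported here. Promoter sequences are RefSeq's (GRCm38.p6).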

Additional observations from a re-analysis of the deposited data

Results flagged for a closer look

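Pdgfrb and Pdgfd had antibody differences of opposite sign in BLS4 and BLS12, and the difference between the lines was not tested. The BLS12 response minus the BLS4 response was 1.07 log2 units for Pdgfrb, from -0.46 in BLS4 and 0.61 in BLS12. It was 1.08 for Pdgfd, from -0.75 in BLS4 and 0.33 in BLS12, where both BLS12 values lay below the 95th percentile of chemosensory receptor genes.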

How the results depend on the processing

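No setting with a test called any of the 6 genes for the antibody: the adjusted p of Pdgfra ran from 0.0953, with the filter on all 4 line arrays, to 1 without the replicate block. Over all genes the count of 33 became 98 after array centring, 6 after quantile normalization, 54 without a filter, 115 with the filter on all 4 line arrays and 0 without the block. Pdgfrb turned to -0.0012 after centring, which moved array medians by at most 0.0718 log2 units. Between the lines Pdgfrb and Pdgfc passed under every setting that tested them, but the filter on all 4 line arrays left out Pdgfc and Pdgfd, so that 1 gene was called in place of 3. Pdgfd, at background in BLS12, was tested only under filters its BLS4 level met or with no filter, so its calls are no sign of stability. Without the block the adjusted p of Pdgfrb, Pdgfc and Pdgfd was 0.0251, 0.04 and 0.00867, and the count over all genes fell from 2835 to 1428. Leaving out a line gave antibody differences of 0.59 to 1.26 for Pdgfra, -0.46 to 0.61 for Pdgfrb and -0.75 to 0.33 for Pdgfd, with no test, since no residual degrees of freedom remain. Against LN stroma, the unstimulated lines had 0 of the 6 genes at least 4-fold apart; without BLS4 there were 2 (Pdgfrb and Pdgfd) and without BLS12 0, and the Pdgfd difference ran from -3.68 without BLS4 to 0.43 without BLS12. For LN stroma and the lines against MEF, Pdgfra and Pdgfc stayed at least 4-fold apart under each scaling and without either line. The cause of the changed counts was not tested. Signal at background limits Pdgfd in BLS12.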

Other observations

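The PDGF receptors belong to a receptor class that also holds Kit, Flt3 and Csf1r, and ligands of these relatives differed between the samples. Kitl, the ligand of Kit, was higher in BLS12 by 2.06 log2 units (SE 0.247, adjusted p = 0.00546, limma), and Csf1, a macrophage growth factor, was higher in BLS4 with a difference of -1.76 (SE 0.137, adjusted p = 0.00154, limma). These were the 2 of 4 tested members of that list that passed between the lines, where 23.6% of all genes tested passed. Flt3l, the ligand of Flt3, had 9.68 log2 units in LN stroma and 5.67 to 6.43 on the other 5 arrays. Grb10, an adaptor that binds growth factor receptors, had 11.10 in MEF and 9.57 in LN stroma but 5.05 to 5.34 in the lines, and Pik3cb, a catalytic subunit of PI3 kinase, had 8.92 in MEF, 5.97 in LN stroma and 7.78 to 8.54 in the lines. Flt3l, Grb10 and Pik3cb were singled out after their values were seen.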
